A study of Mus musculus with 18 samples.

Results

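The genes described here are the long noncoding RNA Miat, 5 serine protease inhibitors of the serpin family (Serpina3f, Serpina3g, Serpinb1a, Serpinb6b and Serpinb9) and 2 proteases (Prss12 and Mmp9), which make 8 of the 26665 gene symbols listed. They were chosen by symbol, some for a pattern particular to Nrp1-negative regulatory T cells (Treg) in these same libraries and the others as serpin relatives, so every value that involves Nrp1-negative Treg is given as a description and carries no test. Expression was measured by RNA sequencing of total RNA from T cells sorted from the spleen of C57BL/6 mice that carry an EGFP reporter of Foxp3, the transcription factor that defines Treg. Wild type (Foxp3EGFP) and CD28-deficient (CD28-/-Foxp3EGFP) mice were used, and both genotypes carried the reporter. From each genotype 3 populations were sorted: Nrp1+ Treg, called tTreg in the labels, Nrp1-negative Treg, called pTreg, and conventional T cells (Tconv), with 3 libraries for each of the 6 groups. The labels name no treatment. The age of the mice, and whether the libraries of a group came from separate animals, are not given in the labels, so p-values measure the spread between these libraries, which may be technical.

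Serpins trap for good a protease that attacks them, and they fall into clades. Clade A serpins are mostly secreted, although mouse Serpina3g acts inside leukocytes, and clade B serpins stay inside the cell, where they can protect it from proteases of its own granules and lysosomes. Treg that lack Nrp1 are widely used as a stand-in for Treg formed outside the thymus, and CD28 is the main costimulatory receptor of T cells, which acts beside the antigen receptor.

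Values are FPKM, fragments per kilobase of transcript scaled to the mapped fragments, so levels of different genes can be set side by side per length. Group levels are given as means ± SD in FPKM (n = 3 libraries), and differences are of log2(FPKM + 1), which understates the change of genes near or under 1 FPKM. The steps between the lowest values gave an approximate depth of 16800000 to 47300000 reads per library. Foxp3 was at 56.0 to 137 FPKM in the 12 Treg libraries and at most 0.285 FPKM in 5 of the 6 Tconv libraries, while CD28-deficient Tconv replicate 3 had 21.1 FPKM of Foxp3 and 12.8 FPKM of Nrp1. Nrp1 was at 55.6 to 83.5 FPKM in the Nrp1+ Treg libraries and at 0.449 to 0.911 FPKM in the Nrp1-negative ones. Cd28 was at 54.1 to 117 FPKM in the 9 CD28-deficient libraries and at 31.5 to 82.8 FPKM in the 9 wild type ones, so its total value checks nothing about the genotype, and the groups are named by their labels. Wild type Nrp1-negative Treg replicate 1 also stood apart, with a median log2(FPKM + 1) of 2.85 over the 12265 genes tested. It had 20.8% of its summed FPKM in the microRNA gene Mir5105. That share was also large in CD28-deficient Tconv replicate 3 (26.9%) and wild type Tconv replicate 1 (19.4%). These 12265 genes reached 1 FPKM in 3 or more libraries, and all 8 genes of the set were among them. Miat was so only through wild type Nrp1-negative Treg and Mmp9 only through the Nrp1-negative Treg groups, and 6 of the 7 libraries with 1 FPKM of Serpinb1a were Nrp1-negative Treg, so tests of these 3 genes between other groups compare levels mostly under that limit.

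**Figure D1:**
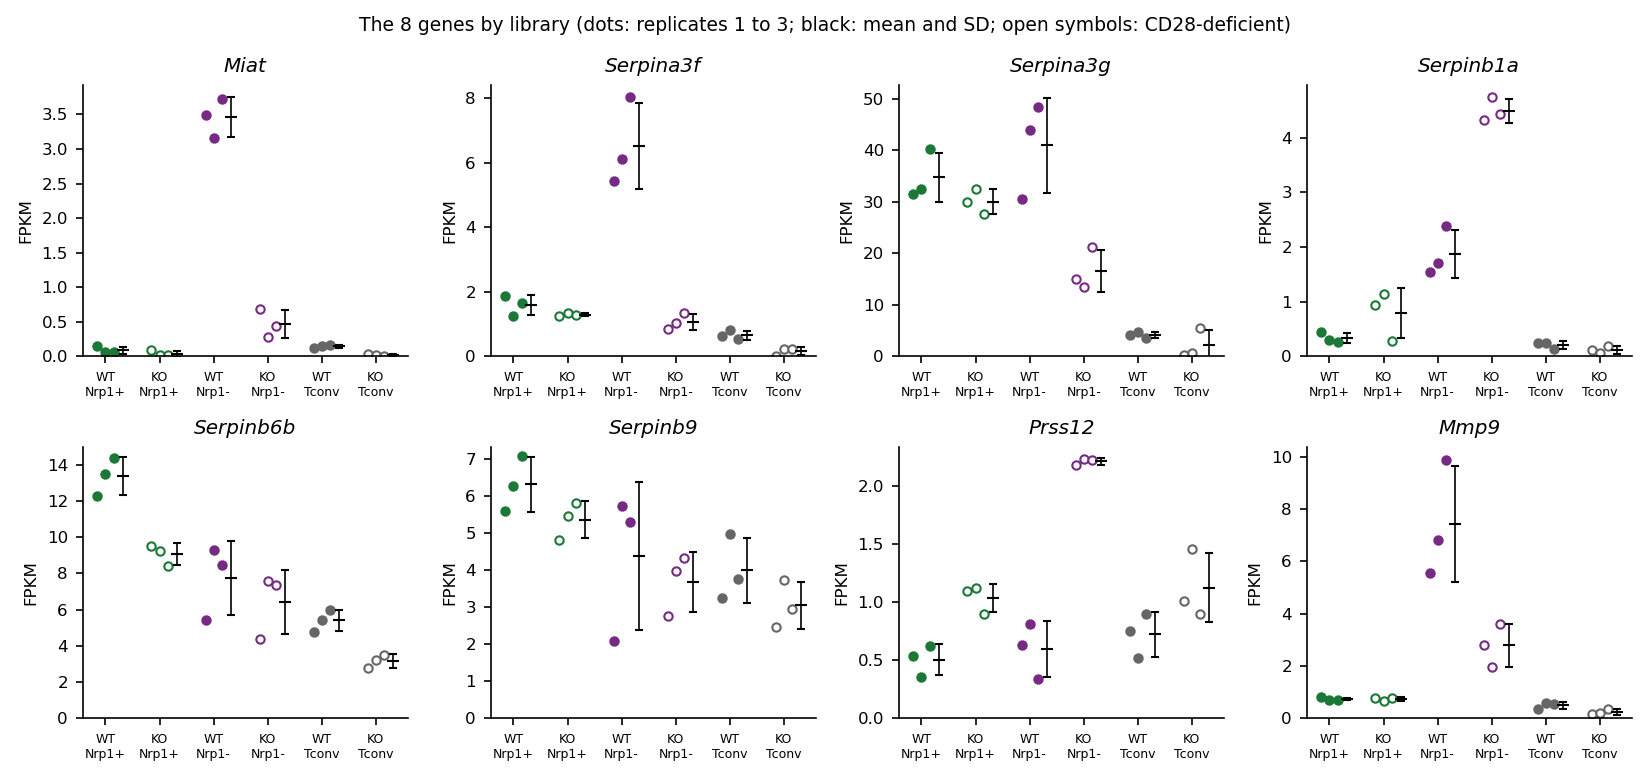
FPKM of the 8 genes in each of the 18 libraries, by genotype (filled, wild type; open, CD28-deficient, written KO) and population (green, Nrp1+ Treg; purple, Nrp1-negative Treg; grey, Tconv), with the mean and SD in black. Miat, Serpina3f and Mmp9 are highest in wild type Nrp1-negative Treg, Serpinb1a and Prss12 in CD28-deficient Nrp1-negative Treg, and Serpinb6b and Serpinb9 in wild type Nrp1+ Treg.

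Serpina3f and Serpina3g are neighbours in the same direction on chromosome 12 of GRCm38, Serpina3f at 104214544 to 104221129 and Serpina3g at 104236245 to 104241939 on the plus strand, with 15115 bases and no other protein-coding gene between them. Their promoters are shown because the 2 genes share an origin and much of their pattern, yet differed in how they followed the Treg subsets and CD28. The RefSeq windows on GRCm38.p6, plus strand, run from 250 bases before the start site to 50 after it, chr12:104214294-104214593 for Serpina3f and chr12:104235897-104236196 for Serpina3g, and the capitals mark a match to TTCNNNGAA, the letters of the GAS element bound by STAT factors.
Serpina3f: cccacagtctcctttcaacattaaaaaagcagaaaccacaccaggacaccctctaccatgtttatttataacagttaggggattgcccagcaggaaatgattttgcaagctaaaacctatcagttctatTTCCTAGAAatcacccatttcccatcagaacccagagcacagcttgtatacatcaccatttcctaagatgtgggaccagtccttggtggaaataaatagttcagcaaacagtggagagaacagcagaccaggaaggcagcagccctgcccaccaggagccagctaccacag
Serpina3g: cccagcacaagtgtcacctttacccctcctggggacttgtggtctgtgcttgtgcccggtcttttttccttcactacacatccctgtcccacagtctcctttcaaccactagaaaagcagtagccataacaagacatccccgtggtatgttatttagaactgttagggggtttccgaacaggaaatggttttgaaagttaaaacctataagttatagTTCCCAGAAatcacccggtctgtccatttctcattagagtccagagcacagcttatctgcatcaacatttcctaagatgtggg
A local alignment of the 2 windows paired 202 positions, of which 169, or 83.7%, were identical. The marked match began 121 bases before the RefSeq start site of this window in Serpina3f, 210 bases before a further RefSeq start of the same gene, and 33 bases before the RefSeq start in Serpina3g. Counted from the gene starts of the GENCODE annotation given above, it began 121 bases before Serpina3f and 131 bases before Serpina3g. Both strands were searched, and 8.33% of the 32544 RefSeq promoter windows of this length hold such a match, so that it is a description of letters and not of a bound site.

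Serpina3f had 5.43, 6.10 and 8.02 FPKM in the 3 wild type Nrp1-negative Treg libraries and 0.837, 1.02 and 1.34 FPKM in the CD28-deficient ones. In Nrp1+ Treg it had 1.86, 1.24 and 1.66 FPKM in wild type and 1.25, 1.33 and 1.28 FPKM in CD28-deficient libraries. In Tconv it had 0.620, 0.795 and 0.517 FPKM in wild type and 0.0153, 0.226 and 0.225 FPKM in CD28-deficient libraries. Wild type Nrp1-negative Treg therefore stood clear of all other groups, at 6.52 ± 1.34 FPKM, while CD28-deficient Nrp1-negative Treg (1.06 ± 0.254) overlapped CD28-deficient Nrp1+ Treg (1.28 ± 0.0396). The difference between CD28-deficient and wild type Nrp1-negative Treg was -1.86 ± 0.15 (SE) on the log2 scale. Between the Treg subsets, Nrp1+ minus Nrp1-negative, the difference was -1.53 ± 0.15 in wild type and 0.15 ± 0.15 in CD28-deficient libraries. In bulk samples, fewer cells that express a gene and less RNA per cell cannot be told apart, here and in all that follows.

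Serpina3g, an inhibitor of lysosomal cysteine cathepsins, was the most abundant of the 8 genes per length, with 30.5, 43.9 and 48.4 FPKM in wild type Nrp1-negative Treg, against 14.97, 13.5 and 21.2 FPKM in the CD28-deficient ones. It had 31.6, 32.4 and 40.3 FPKM in wild type and 30.03, 32.5 and 27.6 FPKM in CD28-deficient Nrp1+ Treg. In Tconv it had 4.08, 4.62 and 3.57 FPKM in wild type and 0.226, 0.616 and 5.51 FPKM in CD28-deficient libraries. The 2 wild type Treg groups overlapped, CD28-deficient Nrp1+ Treg overlapped wild type Nrp1+ Treg, and CD28-deficient Nrp1-negative Treg lay below all 3 of them. Its difference with CD28 loss in Nrp1-negative Treg was -1.26 ± 0.42 on the log2 scale, against -0.20 ± 0.42 in Nrp1+ Treg.

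Within each library the ratio of Serpina3g to Serpina3f FPKM separated these 2 neighbours further. Among wild type libraries it was 6.29 ± 0.812 for Nrp1-negative Treg, close to the 6.43 ± 0.554 of Tconv, but 22.5 ± 4.81 in wild type and 23.4 ± 1.58 in CD28-deficient Nrp1+ Treg. CD28-deficient Nrp1-negative Treg lay between, at 15.6 ± 2.33, and of the 6 Nrp1+ Treg libraries its own overlapped only the lowest, at 17.0. In CD28-deficient Tconv the ratio was 14.8, 2.72 and 24.5, with both genes under 1 FPKM in the first 2 libraries. Of the 50-base windows of the longest transcript, 10.7% in Serpina3f and 16.0% in Serpina3g also occur in another gene, 6.00% of those of Serpina3f in Serpina3g itself, so the level of either depends in part on how such reads were assigned.

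**Figure D2:**
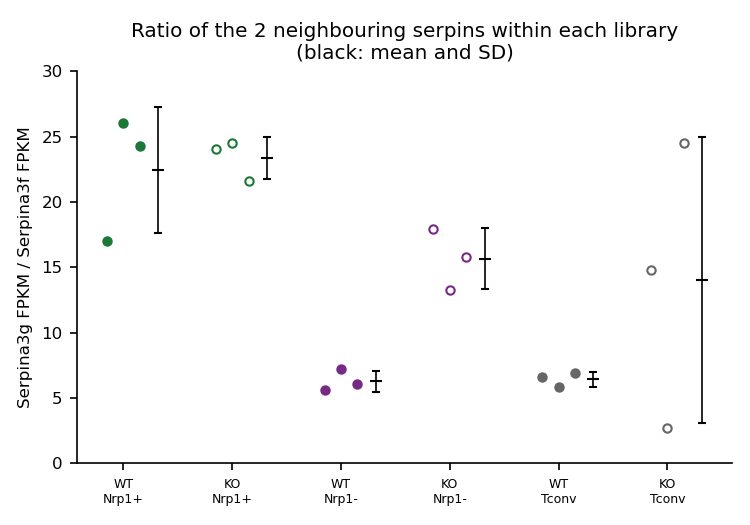
Serpina3g FPKM divided by Serpina3f FPKM within each library (dots; open, CD28-deficient, written KO), with the mean and SD of 3 libraries in black. The 3 wild type Nrp1-negative Treg libraries sit between 5.62 and 7.19, and the 6 Nrp1+ Treg libraries between 17.0 and 26.1.

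Nrp1+ Treg were compared with Tconv, with Nrp1-negative libraries entering only the shared estimate of the spread. Here 3 of the 8 genes passed in wild type (Serpina3f, Serpina3g and Serpinb6b). In CD28-deficient mice 4 of 8 passed, the same genes and Serpinb1a, all higher in Nrp1+ Treg. Miat, Mmp9 and Serpinb1a passed the filter only or mostly through Nrp1-negative Treg, so nothing is read from these counts. Over all genes tested, 12.6% and 12.1% passed in these comparisons (limma, Benjamini-Hochberg adjusted p under 0.05 over all 12265 genes). Serpina3g was 2.81 ± 0.42 higher on the log2 scale in wild type (adjusted p = 0.000147) and 3.72 ± 0.42 higher in CD28-deficient mice (adjusted p = 1.59e-05). Serpina3f was 0.65 ± 0.15 higher in wild type (limma adjusted p = 0.00772) and 0.99 ± 0.15 higher in CD28-deficient mice (adjusted p = 0.000208). After quantile normalization the wild type value of Serpina3f became 0.43, with a limma adjusted p of 0.0736.

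With CD28 loss in Nrp1+ Treg none of the 8 genes passed, where 0.204% of all genes did. An unadjusted limma p under 0.05 was found there for 3 of the 8, beside 469 of all 12265 genes. In Tconv none of the 8 passed, where 0.791% of all genes did. An unadjusted limma p under 0.05 was found in Tconv for 3 of the 8, beside 1185 of all 12265 genes. In Tconv the Serpina3g difference was -1.11 ± 0.42 (limma adjusted p = 0.419), and whether it passed depended on CD28-deficient Tconv replicate 3. That library had a summed level of the 4 Treg markers of 92.9 FPKM, against 3.16 and 3.99 FPKM in the other CD28-deficient Tconv libraries. Without it the Serpina3g difference was -1.85 ± 0.23 (limma adjusted p = 0.000358). The CD28 effect in Nrp1+ Treg minus that in Tconv was 0.91 ± 0.59 for Serpina3g with all libraries (adjusted p = 1) and 1.65 ± 0.31 without that library (limma adjusted p = 0.0360). Of the 8 genes 0 passed the test of this difference with all libraries, where 0.122% of all genes did. An unadjusted limma p under 0.05 was found for 0 of the 8, beside 267 of all 12265 genes. Serpina3f was lower in all 3 CD28-deficient than in all 3 wild type Tconv libraries, with a difference of -0.51 ± 0.15 (limma adjusted p = 0.235), and with a pseudocount of 0.1 in place of 1 it was -1.67 ± 0.36 (adjusted p = 0.0322).

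**Figure D3:**
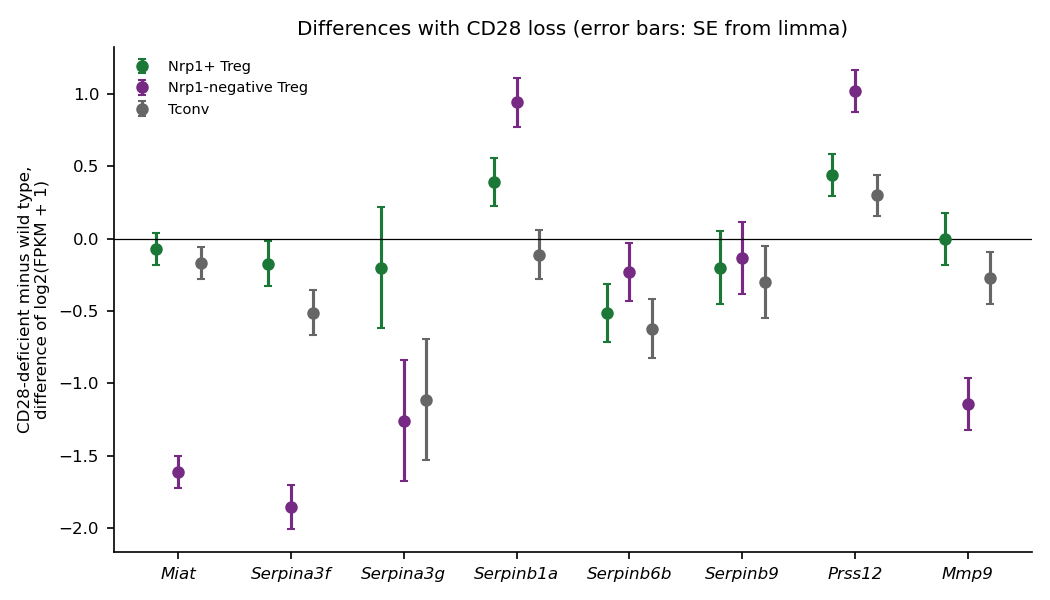
Difference of log2(FPKM + 1) between CD28-deficient and wild type libraries for the 8 genes in Nrp1+ Treg (green), Nrp1-negative Treg (purple) and Tconv (grey), with SE from limma. In Nrp1-negative Treg the values run from -1.86 for Serpina3f to 1.02 for Prss12, and in Nrp1+ Treg from -0.51 for Serpinb6b to 0.44 for Prss12.

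Miat lies on chromosome 5 at 112213228 to 112229395 on the minus strand and is annotated as a long intergenic noncoding RNA. It is a nuclear RNA best known from neurons, where its repeats bind the splicing factor SF1. Its levels were 3.49, 3.16 and 3.73 FPKM in wild type Nrp1-negative Treg, against 0.677, 0.283 and 0.431 FPKM in CD28-deficient Nrp1-negative Treg. The 12 other libraries held at most 0.165 FPKM, and 1 CD28-deficient Tconv library was listed at 0. Wild type Nrp1-negative Treg, at 3.46 ± 0.287 FPKM, was thus 7.46-fold above CD28-deficient Nrp1-negative Treg and 40.7-fold above wild type Nrp1+ Treg (0.0850 ± 0.0494 FPKM) by the ratio of means. The latter ratio was 61.1 without wild type Nrp1+ Treg replicate 1, which had 0.142 FPKM against 0.0526 and 0.0605 FPKM. On the log2 scale the difference with CD28 loss was -1.61 ± 0.11, and among CD28-deficient libraries it was -0.49 for Nrp1+ minus Nrp1-negative Treg and 0.52 for Nrp1-negative Treg minus Tconv. In Tconv Miat had 0.122, 0.139 and 0.165 FPKM in wild type and 0.0371, 0.00953 and 0 FPKM in CD28-deficient libraries, which did not overlap, but the difference did not pass (-0.17 ± 0.11, limma adjusted p = 0.611). In all comparisons without Nrp1-negative Treg every library was below the limit of 1 FPKM, so these tests say little about Miat. Of the 50-base windows of its longest transcript, 23.2% also occur in other gene models, most of them in Gm26953.

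A list of other long noncoding RNAs, such as Malat1 and Neat1, and of protein-coding genes of RNA-binding factors, such as Sf1, had 19 genes tested. With CD28 loss in Nrp1-negative Treg their differences ran from -0.15 to 0.42 and none passed, where 0.204% of all genes did. Between the wild type Treg subsets none passed either, where 4.93% of all genes did, so these counts are near the background. The calls in this list were Snhg3 (-1.12 ± 0.34, adjusted p = 0.0420) and Snhg8 (-0.62 ± 0.18, adjusted p = 0.0274 with limma), small nucleolar RNA host genes that were lower in wild type Nrp1+ Treg than in Tconv. They were 2 of the 19 genes, where 12.6% of all genes passed in that comparison, so nothing is read from this count. The Snhg3 groups overlapped.

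The 3 clade B serpins lie in a cluster on chromosome 13 in which 15 serpins are listed and 4 passed the filter. Serpinb1a is at 32842092 to 32851185 on the minus strand, Serpinb6b at 32965209 to 32979067 and Serpinb9 at 33003250 to 33017957 on the plus strand, with 24182 bases and no protein-coding gene between the last pair. In the Serpina cluster on chromosome 12, 24 serpins are listed and only Serpina3f and Serpina3g passed. Over the whole family 63 serpins are listed, 8 passed, and the 55 others reached at most 1.15 FPKM (Serpina9), with 13 of them listed at 0 in all libraries. Apart from the 5 serpins of the set, those that passed were Serpinb6a, Serpinc1 and Serpini1.

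**Figure D4:**
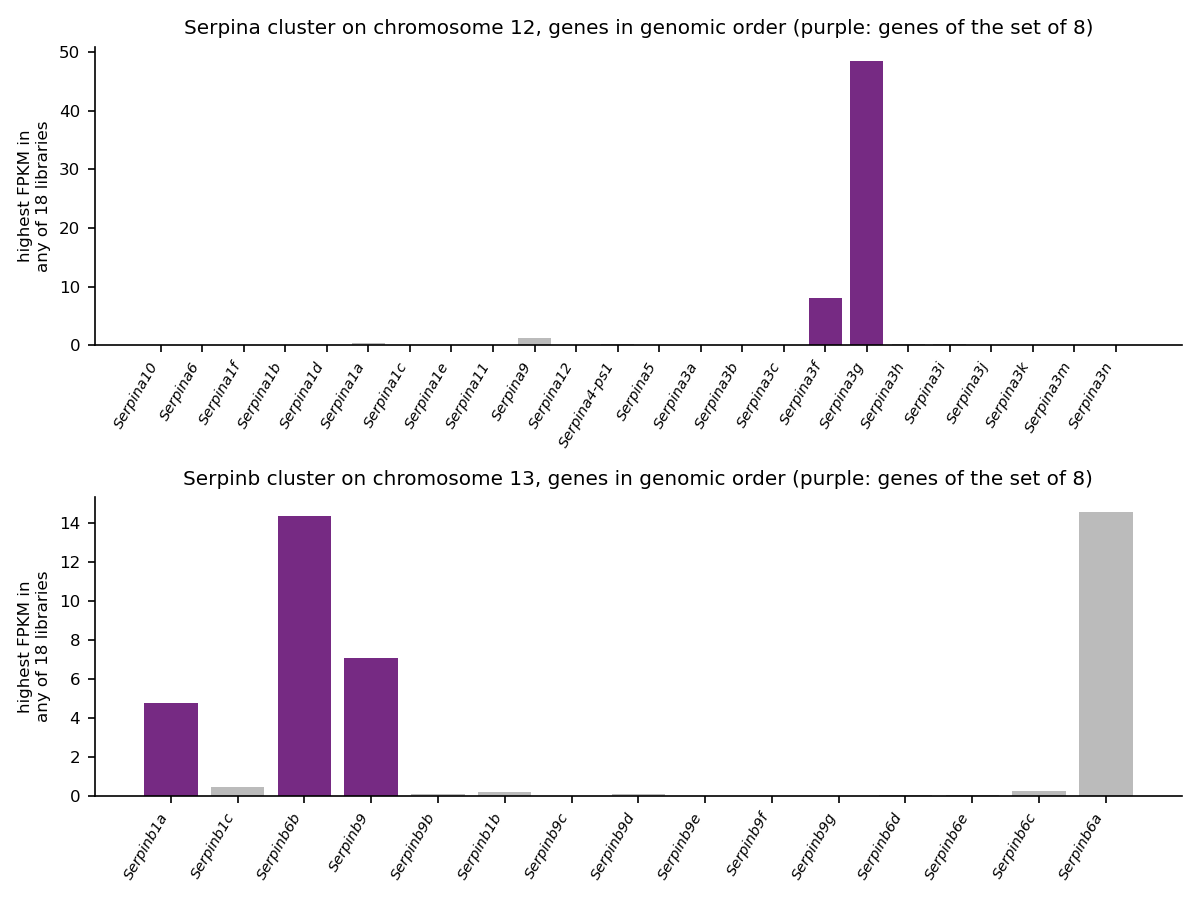
Highest FPKM in any of the 18 libraries for each serpin of the chromosome 12 and chromosome 13 clusters, in genomic order; genes of the set are purple. In the chromosome 12 cluster, Serpina3g reaches 48.4 and Serpina3f 8.02 FPKM, and no other gene of it exceeds 1.15 FPKM.

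Serpinb1a, an inhibitor of neutrophil-type serine proteases such as elastase and cathepsin G, differed with CD28 loss in the direction opposite to Miat and Serpina3f. It had 4.32, 4.74 and 4.43 FPKM in CD28-deficient and 1.55, 1.70 and 2.38 FPKM in wild type Nrp1-negative Treg. In Nrp1+ Treg it had 0.934, 1.15 and 0.269 FPKM in CD28-deficient and 0.435, 0.288 and 0.260 FPKM in wild type libraries. The 6 Tconv libraries lay between 0.0473 and 0.242 FPKM. Both Nrp1-negative groups were clear of each other and of all other groups, and the difference with CD28 loss was 0.94 ± 0.17 on the log2 scale. In Nrp1+ Treg the same difference was 0.39 ± 0.17, with overlapping groups (limma adjusted p = 1). Serpinb1a was higher in CD28-deficient Nrp1+ Treg than in Tconv by 0.64 ± 0.17 (limma adjusted p = 0.0155), but the call was lost after quantile normalization (0.30, adjusted p = 0.292), with a model of the compared groups alone (adjusted p = 0.0761) and without any 1 of 4 libraries (replicates 1 and 2 of either group, adjusted p from 0.0543 to 0.115). In wild type that difference was 0.14 ± 0.17 (limma adjusted p = 0.758), and it was -0.091 after quantile normalization. Since Serpinb1a passed the filter mostly through its Nrp1-negative Treg levels, no call is drawn from these values.

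Serpinb6b, a clade B inhibitor of the mouse Serpinb6 group, was highest in wild type Nrp1+ Treg at 12.3, 13.5 and 14.4 FPKM, against 9.53, 9.26 and 8.41 FPKM in CD28-deficient Nrp1+ Treg. In Nrp1-negative Treg it had 5.41, 9.30 and 8.47 FPKM in wild type and 4.40, 7.56 and 7.36 FPKM in CD28-deficient libraries. In Tconv it had 4.78, 5.43 and 5.99 FPKM in wild type and 2.76, 3.23 and 3.48 FPKM in CD28-deficient libraries. Wild type Nrp1+ Treg stood above all other groups, and wild type and CD28-deficient libraries overlapped only in Nrp1-negative Treg. Nrp1+ Treg exceeded Tconv by 1.17 ± 0.20 in wild type (limma adjusted p = 0.000576) and by 1.28 ± 0.20 in CD28-deficient mice (adjusted p = 0.000247). The CD28 differences were -0.51 ± 0.20 in Nrp1+ Treg (limma adjusted p = 1) and -0.62 ± 0.20 in Tconv (adjusted p = 0.304, and 0.0477 after quantile normalization, at -0.49), beside -0.23 ± 0.20 in Nrp1-negative Treg.

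Serpinb9, the intracellular inhibitor of granzyme B, varied least of the 8 genes over the 6 group means. In Nrp1+ Treg it had 5.61, 6.28 and 7.09 FPKM in wild type and 4.82, 5.47 and 5.81 FPKM in CD28-deficient libraries. In Nrp1-negative Treg it had 2.10, 5.75 and 5.31 FPKM in wild type and 2.78, 3.97 and 4.33 FPKM in CD28-deficient libraries. In Tconv it had 3.26, 4.97 and 3.77 FPKM in wild type and 2.47, 3.74 and 2.97 FPKM in CD28-deficient libraries. Ordered by their means, which ran from 6.33 ± 0.740 FPKM in wild type Nrp1+ Treg to 3.06 ± 0.637 FPKM in CD28-deficient Tconv, every pair of neighbouring groups overlapped. Nrp1+ Treg exceeded Tconv by 0.56 ± 0.25 in wild type (limma adjusted p = 0.1996) and by 0.66 ± 0.25 in CD28-deficient mice (adjusted p = 0.122). With the replicate number as a block, which the libraries' pairing in these comparisons allows, the limma adjusted p became 0.0365 in wild type and 0.0145 in CD28-deficient mice, and after quantile normalization it was 0.0140 and 0.0111. Replicate 1 of wild type Nrp1-negative Treg was lower than the other libraries of its group. The CD28 difference in Nrp1-negative Treg was -0.13 ± 0.25 with that library and -0.49 ± 0.18 without it. It turned to 0.071 without wild type replicate 2, 0.022 without wild type replicate 3 and 0.016 without CD28-deficient replicate 1, so its direction rests on single libraries. The difference between the wild type Treg subsets was 0.52 with the low library and 0.16 without it. The RefSeq promoter window of Serpinb9 holds the letters TTTCACTTTC, which on the minus strand read as 2 copies of GAAA with 2 bases between them. This is the core of the interferon response element, which 3.45% of all windows hold. The window, at 33004291 to 33004590, lies inside the gene as GENCODE annotates it, from 33003250. No match to the AP-1 letters TGANTCA or the ETS letters CCGGAAGT, both strands searched, was in the windows of the 6 genes that RefSeq matched (all but Serpinb1a and Mmp9).

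Mmp9 encodes gelatinase B, a secreted metalloprotease that cleaves type IV collagen, and lies on chromosome 2 at 164940780 to 164955850 on the plus strand. It had 5.56, 6.83 and 9.90 FPKM in wild type and 2.80, 1.97 and 3.62 FPKM in CD28-deficient Nrp1-negative Treg. Nrp1+ Treg had 0.800, 0.710 and 0.705 FPKM in wild type and 0.769, 0.665 and 0.772 FPKM in CD28-deficient libraries, and the 6 Tconv libraries lay between 0.179 and 0.591 FPKM. All 6 Nrp1-negative Treg libraries were above all 12 others, the wild type mean was 10.1-fold that of wild type Nrp1+ Treg, and the difference with CD28 loss was -1.14 ± 0.18 on the log2 scale. In Nrp1+ Treg the CD28 difference was -0.0025 ± 0.18 (limma adjusted p = 1), with a 95% interval from -0.39 to 0.38. CD28-deficient Nrp1+ Treg exceeded Tconv by 0.48 ± 0.18 (limma adjusted p = 0.112). Its limma adjusted p was 0.0453 with the replicate number as a block, which the pairing allows, 0.0223 with a model of the compared groups alone and 0.00606 with a pseudocount of 0.1. Since Mmp9 was tested only through its Nrp1-negative Treg levels and all these libraries were under 1 FPKM, no call is drawn from these values.

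Neutrophils carry large amounts of Mmp9, and 10 neutrophil markers were summed in each library. The sums were 18.9, 22.7 and 75.9 FPKM in wild type Nrp1-negative Treg, 42.1, 16.8 and 58.5 FPKM in CD28-deficient Nrp1-negative Treg, and 36.6, 11.1 and 44.4 FPKM in CD28-deficient Nrp1+ Treg. They ran from 18.98 to 28.6 FPKM in wild type Nrp1+ Treg, from 13.2 to 22.8 FPKM in wild type Tconv and from 8.53 to 10.1 FPKM in CD28-deficient Tconv. S100a8 reached 34.1 FPKM and S100a9 24.9 FPKM in wild type Nrp1-negative Treg replicate 3. Ly6g was listed at 0 in all libraries of 3 groups (both Tconv groups and wild type Nrp1+ Treg). It was at 0, 0 and 0.000125 FPKM in wild type Nrp1-negative Treg. In CD28-deficient libraries it was at 0.775, 0 and 0 FPKM in Nrp1-negative Treg and at 0.444, 0 and 0.545 FPKM in Nrp1+ Treg. The library with the most Mmp9, wild type Nrp1-negative Treg replicate 3, also had the largest marker sum, and in both Nrp1-negative groups the Mmp9 values were ordered as the sums. Across populations they were not: the CD28-deficient Nrp1+ Treg libraries with sums of 36.6 and 44.4 FPKM had 0.769 and 0.772 FPKM of Mmp9, while replicate 1 of wild type Nrp1-negative Treg, with a sum of 18.9 FPKM, had 5.56 FPKM. The part of neutrophils in the Mmp9 values, both in the spread among the Nrp1-negative Treg libraries and between populations, was not tested.

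**Figure D5:**
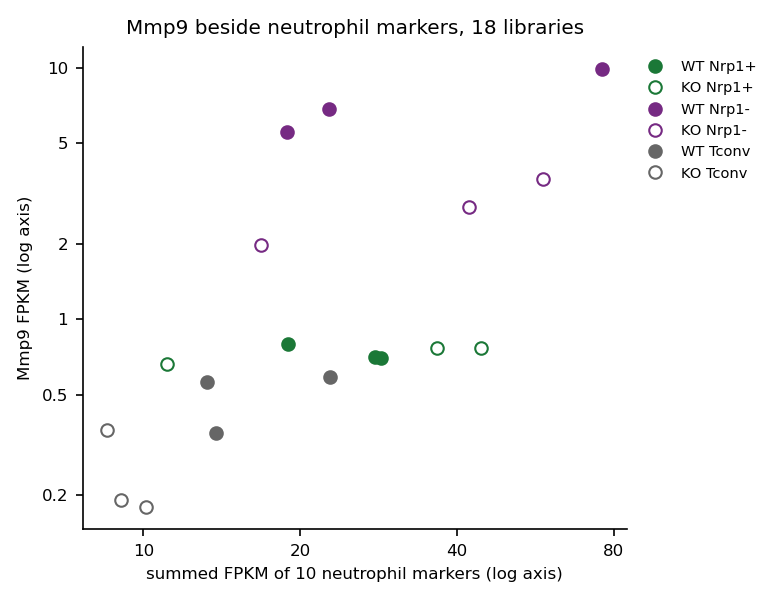
Mmp9 FPKM against the summed FPKM of 10 neutrophil markers in each of the 18 libraries (both axes log; open, CD28-deficient, written KO). Nrp1-negative Treg libraries (purple) have 1.97 to 9.90 FPKM of Mmp9 and Nrp1+ Treg libraries (green) 0.665 to 0.800 FPKM, over overlapping ranges of the marker sum.

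Prss12 encodes neurotrypsin, a secreted serine protease known for cleaving agrin at synapses, and lies on chromosome 3 at 123446913 to 123506597 on the plus strand. It was highest in CD28-deficient Nrp1-negative Treg, at 2.18, 2.24 and 2.23 FPKM, and had 0.628, 0.817 and 0.338 FPKM in the wild type ones. Nrp1+ Treg had 1.09, 1.12 and 0.903 FPKM in CD28-deficient and 0.534, 0.358 and 0.624 FPKM in wild type libraries. Tconv had 1.01, 1.46 and 0.901 FPKM in CD28-deficient and 0.754, 0.516 and 0.899 FPKM in wild type libraries. In each population all 3 CD28-deficient libraries were above all 3 wild type libraries, in Tconv by a margin of 0.901 against 0.899 FPKM, and the 3 wild type groups overlapped one another. The differences with CD28 loss were 1.02 ± 0.14 in Nrp1-negative Treg, 0.44 ± 0.14 in Nrp1+ Treg (limma adjusted p = 0.602) and 0.30 ± 0.14 in Tconv (adjusted p = 0.525).

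Between CD28-deficient and wild type Nrp1-negative Treg, 6 of the 8 genes did not overlap, where 6.43% of all tested genes did not; 4 were lower (Miat, Serpina3f, Serpina3g and Mmp9) and 2 higher (Serpinb1a and Prss12). Between the wild type Treg subsets 5 of 8 did not overlap, against 14.6% of all genes. Nothing is read from these shares, since the genes were chosen on this population. The median difference over all genes tested was 0.19 for CD28 loss in Nrp1-negative Treg and 0.19 for Nrp1+ minus Nrp1-negative Treg in wild type. Both use wild type Nrp1-negative Treg, whose library medians of log2(FPKM + 1) were 2.85, 3.68 and 3.66. Those of CD28-deficient Nrp1-negative Treg ran from 3.43 to 3.72 and those of wild type Nrp1+ Treg from 3.49 to 3.77. Only replicate 1 was low, so the shift is not shown to hold for the whole group. The median difference over all genes was -0.16 for CD28 loss in Tconv and -0.049 for CD28 loss in Nrp1+ Treg.

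Over the 18 libraries, which share groups, the pairs of the set with the highest Pearson r of log2(FPKM + 1) were Miat with Mmp9 (0.93), Miat with Serpina3f (0.88), Serpina3f with Mmp9 (0.87) and the chromosome 13 neighbours Serpinb6b and Serpinb9 (0.84). Serpina3g followed Serpinb6b (0.83) more closely than its neighbour Serpina3f (0.76). Some genes of the set were chosen for their pattern in these same libraries. A high r within the set, or with other genes, is therefore a description and carries no test. Among all other genes tested, Marcks (0.87) and F2rl2 (0.80) were among those with the patterns most like that of Miat. For Mmp9 these were Arnt2 (0.94), F2rl2 (0.92) and Gbp1 (0.90), and for Serpina3f the cytokine gene Il10 (0.89), Sccpdh (0.87) and Glrx (0.87). The mean level of Il10 in Nrp1-negative Treg was 12.02 FPKM in wild type and 0.546 FPKM in CD28-deficient mice. It was also lower in CD28-deficient mice in Nrp1+ Treg (4.54 against 1.26 FPKM) and in Tconv (1.02 against 0.0211 FPKM). Serpina3g was most like Folr4 (0.97), Ctla4 (0.97) and Rgs1 (0.97), and Ctla4, an inhibitory receptor of Treg, was at 120 to 168 FPKM on average in the 4 Treg groups and at 10.6 FPKM in wild type Tconv. In CD28-deficient Tconv Ctla4 had 1.76, 2.05 and 27.3 FPKM, the last in the library with Foxp3.

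Serpinb1a was most like Nr1d1 (0.96) and Plekhf1 (0.96). Nr1d1, a nuclear receptor of the circadian clock, was at 10.06 FPKM on average in CD28-deficient and 5.91 FPKM in wild type Nrp1-negative Treg, and at most at 3.69 FPKM in the other 4 groups. Serpinb6b was most like Spock2 (0.97), Ifnar2 (0.97) and Dyrk1b (0.96), and Serpinb9 most like Tspan13 (0.96), Cdca7 (0.96) and Prkch (0.96). Prss12 had the loosest likeness, to Bik (0.80), Scarf1 (0.79) and Sag (0.74). Bik, a proapoptotic member of the BCL2 family, was at 3.91 FPKM in CD28-deficient and 1.19 FPKM in wild type Nrp1-negative Treg. Its mean was also higher in CD28-deficient mice in Nrp1+ Treg (2.35 against 0.794 FPKM) and in Tconv (2.19 against 1.41 FPKM).

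Beside the 8 genes, 147 other serpins, proteases and protease inhibitors were listed and 46 were tested. With CD28 loss none of the 46 passed in Nrp1+ Treg or in Nrp1-negative Treg, where 0.204% of all genes passed in either comparison. An unadjusted limma p under 0.05 was found for 6 of the 46 in Nrp1+ Treg, beside 469 of all 12265 genes. In Nrp1-negative Treg it was found for 7 of the 46, beside 544 of all genes. The median difference of the 46 was -0.11 and 0.12 in these 2 comparisons, beside -0.049 and 0.19 over all genes. In Tconv 0.791% of all genes passed, 97 lower and 0 higher with CD28 loss, so the direction is that of every call in this comparison. Of the 46 genes 4 passed, all lower, and the list's median was -0.24 beside -0.16 over all genes. These were the granzyme genes Gzmk (-2.52), Gzmb (-1.87) and Gzma (-1.72) and the cathepsin gene Ctsw (-1.50), with limma adjusted p from 6.94e-05 to 0.00575. The summed level of 5 NK cell markers was also lower there, at 1.65, 2.59 and 2.19 FPKM in CD28-deficient against 7.57, 6.38 and 3.88 FPKM in wild type Tconv, without overlap. Most of each NK cell sum was Eomes, and Ncr1 was at 0.0757 FPKM or less in these 6 libraries. The summed level of 2 CD8 T cell markers, mostly Cd8b1, was higher with CD28 loss, also without overlap. It was 10.9, 12.9 and 10.8 FPKM in CD28-deficient and 9.95, 8.66 and 7.57 FPKM in wild type Tconv. The part of either cell type in the granzyme differences was not tested. Gzmb, the target of Serpinb9, was at 3.02 ± 1.59 FPKM in wild type and 0.0446 ± 0.0451 FPKM in CD28-deficient Tconv, and at 6.38 ± 2.13 and 1.819 ± 1.0003 FPKM in Nrp1-negative Treg. With a model of the compared groups alone 0 of the 46 passed in Tconv, and these 4 genes had limma adjusted p from 0.0703 to 0.171. Gzmb also lost its call after quantile normalization (limma adjusted p = 0.0788), and 7 of the 46 passed without CD28-deficient Tconv replicate 3, CD28-deficient Nrp1+ Treg replicate 3 and replicate 1 of wild type Nrp1-negative Treg and Tconv.

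Between the wild type Treg subsets 5 of these 46 genes passed, against 4.93% of all genes tested, with a list median of 0.29 beside 0.19. Higher in Nrp1+ Treg were the cathepsin inhibitor gene Cst7 (1.51 ± 0.31, limma adjusted p = 0.00615), Serpinc1, which encodes antithrombin (1.26 ± 0.16, adjusted p = 0.000177), Serpinb6a (0.81 ± 0.19, adjusted p = 0.0168) and the membrane protease gene St14 (0.59). Perforin, Prf1, was lower (-0.96 ± 0.25, limma adjusted p = 0.0330). Serpinc1 was at 2.81 ± 0.585 FPKM in wild type and 2.20 ± 0.315 FPKM in CD28-deficient Nrp1+ Treg and at 0.367 to 0.584 FPKM on average in the other 4 groups, an order of the wild type Treg subsets opposite to that of Serpina3f. Serpinb6a no longer passed after quantile normalization (0.56, adjusted p = 0.151), with a model of the compared groups alone (adjusted p = 0.243), or without Nrp1-negative Treg replicate 3 or any 1 of the 3 Nrp1+ Treg libraries (limma adjusted p from 0.0553 to 0.0707). Prf1 no longer passed without the filter on low values (adjusted p = 0.0631), with only the compared groups (0.109), or without replicate 2 or 3 of Nrp1-negative Treg or replicate 1 or 3 of Nrp1+ Treg (limma adjusted p from 0.104 to 0.152). In all, 2 of the 46 passed with a model of the compared groups alone, and 10 passed with the replicate number as a block, which the pairing allows here. The count also moved when 1 library was left out, from 8 without wild type Nrp1-negative Treg replicate 2 to 2 without its replicate 3 or without wild type Nrp1+ Treg replicate 3, and to 3 without wild type Nrp1+ Treg replicate 1 or 2.

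Wild type Nrp1-negative Treg differed from Tconv in 12 of these 46 genes, against 4.49% of all genes tested, 5 higher and 7 lower, with a list median of -0.0055 beside -0.21. Adam8, a membrane metalloprotease gene, was at 1.24 ± 0.220 FPKM in Tconv and higher in Nrp1-negative Treg, at 8.62 ± 2.42 FPKM (2.08 ± 0.25 on the log2 scale, limma adjusted p = 7.29e-05). Lower in Nrp1-negative Treg by the same test were Gzmk (-1.77, adjusted p = 0.000560), Prf1 (-1.68, adjusted p = 0.000553) and the secreted inhibitor gene Slpi (-1.54, adjusted p = 0.00111). With a model of the compared groups alone 5 of the 46 passed, and without wild type Tconv replicate 3 there were 7.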

How the data were processed

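The authors deposited a table of FPKM by gene symbol for each library, made from NEBNext Ultra libraries read as single reads of 50 nt. Per the submitters' processing notes the authors used Trimmomatic, TopHat2 2.0.11, Cufflinks and the GRCm38 build. The unit was inferred from these tools and from the values; which annotation and strand setting were used is not given in the sources used here. The 8 genes, the other lists and the tests were chosen with earlier results of these data known.

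The 18 libraries were grouped by their titles. Genes that reached 1 FPKM in 3 or more libraries were tested on log2(FPKM + 1) with limma 3.58.1 in R 4.3.3, with a mean for each group and a variance trend over all libraries, two-sided, and called at a Benjamini-Hochberg adjusted p under 0.05 over all tested genes. The code was tested on simulated data. Named besides the 8 genes are Cd28, Foxp3 and Nrp1 as checks, at most 4 called genes of the serpin and protease list by size in each comparison, and for each of the 8 the 3 genes most like it by Pearson r, leaving out unnamed gene models. A few genes that this rule names are not reported here. St14 (between the Treg subsets), Serpini1, Malat1, Neat1, Sf1, Snhg3, Snhg8 and the gene with the highest level below the filter are named outside that rule, after their values were seen.

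Equal replicate numbers were taken as pairs where their deviations from the group means correlated above 0.1 for all 3 numbers, as in 6 of 9 comparisons of 2 groups (all but CD28 loss in either Treg subset and wild type Nrp1-negative Treg against Tconv). Alternatives were a pseudocount of 0.1, no filter, no variance trend, only the compared groups, quantile normalization, a replicate block, each library left out, and 4 libraries left out together. Positions and shared 50-base windows are from GENCODE mouse release M21 and promoters from RefSeq. The depth was read from the steps between the lowest FPKM of genes with 1 transcript and is approximate; it allows no counting intervals here.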

Additional observations from a re-analysis of the deposited data

Results flagged for a closer look

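Serpinb6a, which lies at the other end of the chromosome 13 cluster from Serpinb1a, had CD28 differences of opposite sign in the Treg subsets, and neither passed. The difference of log2(FPKM + 1) was -0.27 ± 0.19 in Nrp1+ Treg (limma adjusted p = 1), where all 3 CD28-deficient libraries were below all 3 wild type libraries. It was 0.22 ± 0.19 in Nrp1-negative Treg (limma adjusted p = 0.770), where all 3 CD28-deficient libraries were above all 3 wild type libraries, beside a median of 0.19 over all genes in that comparison. The difference between these values was 0.48 ± 0.27 (limma adjusted p = 0.863), which did not pass.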

How the results depend on the processing

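Of 201 counts recomputed under the alternatives 176 stayed within 1.5 times the reported count, and of 724 recomputed single gene values with a test 677 kept their direction and side of the threshold. Of 520 recomputed descriptive values of the 8 genes 512 kept their sign. The cause was not tested for any change given here. For CD28 loss in Tconv, 1 of the 8 genes passed in place of 0 with a pseudocount of 0.1 (Serpina3f), with quantile normalization (Serpinb6b) and without the 4 libraries that stood apart (Serpina3g). Those libraries were CD28-deficient Tconv replicate 3, CD28-deficient Nrp1+ Treg replicate 3 and replicate 1 of wild type Nrp1-negative Treg and Tconv. They were picked by name with no set rule. CD28-deficient Nrp1+ Treg replicate 3 had a median log2(FPKM + 1) of 3.63, beside 3.53 and 3.63 in replicates 1 and 2 of its group. The difference of CD28 effects between Nrp1+ Treg and Tconv gave 1 in place of 0 without the same 4 libraries. With each library left out in turn, both counts ran from 0 to 1, the 1 coming without CD28-deficient Tconv replicate 3. The number of the 8 genes below 0 between wild type Nrp1-negative Treg and Tconv ran from 1 to 2.

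Of the 46 other genes, the calls for CD28 loss in Nrp1-negative Treg went from 0 to 2 with quantile normalization, 1 with the replicate block and 1 without the 4 libraries. In Nrp1+ Treg they went from 0 to 1 with quantile normalization and 1 with the replicate block. In Tconv they went from 4 to 0 with only the compared groups and 7 without the 4 libraries. For wild type Nrp1-negative Treg against Tconv they went from 12 to 5 with only the compared groups, and with a library left out from 7 to 15. Between the wild type Treg subsets they went from 5 to 2 with only the compared groups, 8 with quantile normalization and 10 with the replicate block, and with a library left out from 2 to 8.

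The sign turned for values near 0 that were not called. With quantile normalization, Nrp1+ Treg minus Tconv turned to -0.11 for CD28-deficient Miat, -0.016 for wild type Mmp9 and -0.091 for wild type Serpinb1a. With a library left out, Nrp1+ Treg minus Tconv in CD28-deficient mice ran from -0.0092 (Nrp1+ Treg replicate 1 out) to 0.043 for Miat and from -0.13 to 0.059 (Tconv replicate 2 out) for Prss12. The CD28 difference of Mmp9 in Nrp1+ Treg ran from -0.018 to 0.027, turning when replicate 2 of the CD28-deficient or replicate 1 of the wild type group was out (0.023 in the latter). The difference of CD28 effects of Serpinb9 ran from -0.037 to 0.22, turning when CD28-deficient Tconv replicate 1 (-0.0083) or wild type Tconv replicate 2 was out. Equal numbers paired the libraries in 6 of 9 comparisons, and 17 of 18 libraries correlated best with one of their own number. Where they paired, the block changed the side of the threshold for Serpinb9 and Mmp9 as given above and no other call of the 8 genes. A pseudocount of 0.1 enlarged differences of low genes, that of Miat with CD28 loss in Nrp1-negative Treg from -1.61 to -2.72. Depth limits the lowest values of Miat, since 1 read on its longest transcript of 9163 bases is worth about 0.0023 to 0.0065 FPKM, and 4 of the CD28-deficient Nrp1+ Treg and Tconv libraries were listed at under 0.01 FPKM.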
